A study of Mus musculus with 16 samples.

Results

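The genes described here are 31 genes of the B lymphocyte lineage, measured by RNA sequencing of cells washed from mouse airways by bronchoalveolar lavage. They were chosen by symbol from the 54532 genes counted. Of these, 27 were listed as B cell genes, and 4 (Jchain, Mzb1, Prdm1 and Sdc1) as genes of antibody-secreting plasma cells. Some of them, as given below, are also made by other cells. The study gave bleomycin, an anticancer antibiotic that breaks DNA and scars lung tissue, or saline by the oropharyngeal route to 8-10 weeks old mice of a strain labelled C56BL/6J (C57BL/6 in the design text), at 4 U/kg body weight, and collected lavage cells after 14 days. There were 4 groups of 4 libraries each: bleomycin males (C33, C65, C66 and C67), bleomycin females (C49, C50, C68 and C69), saline males (C70 to C73) and saline females (C74 to C77). Values below are given in this order of libraries. The mice carried no named allele, saline was the only treatment of the controls, and no sort or gate is named in the labels, so each library holds whatever cells the lavage recovered. The labels do not say whether 1 library is 1 mouse, and p-values therefore measure the spread between these libraries.

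B cells are lymphocytes that carry an antibody as their antigen receptor. The membrane antibody signals through the paired chains Cd79a and Cd79b, a set of cytoplasmic kinases and adaptors passes the signal on, and co-receptors on the surface raise or lower it. On activation some B cells become plasma cells, which switch off Pax5 and much of the B cell programme under the repressor Prdm1 (Blimp-1) and secrete antibody. Healthy airway lavage consists mainly of alveolar macrophages.

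Total counts per library were 21240382 to 24225885 in bleomycin males, 18871879 to 24567609 in bleomycin females, 16471022 to 19207944 in saline males and 16385784 to 21393539 in saline females. Levels below are CPM, counts per 1e+06 of a library's total times its TMM factor, a correction for composition. A floor of 3 counts, summed over a group, was used for fold changes against 0 and stood for 0.0355, 0.0376, 0.0385 and 0.0386 CPM in these 4 groups. Intervals of fold changes from summed counts are exact, cover 95% and carry counting error only. Most genes of the macrophage list moved the other way from most B cell genes. Over the mean of both sexes 7 of its 10 genes fell in bleomycin libraries and 1 rose, against 28.8% and 34.7% of all genes tested. In females alone 5 fell and 0 rose, against 17.2% and 26.7%. The summed list overlapped between treatments, at 1.286e+04 to 2.589e+04 CPM in bleomycin libraries and 1.925e+04 to 2.812e+04 CPM in saline libraries. Siglecf, a surface marker of alveolar macrophages, was at 176 ± 42.9 CPM in bleomycin libraries and 566 ± 24.0 CPM in saline libraries (SD, n = 8 each).

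In bleomycin lavage nearly the whole set of B cell genes was present, and most of it was nearly absent from saline lavage. In males 27 of the 30 genes with enough counts to be tested rose and 2 (Btk and Prdm1) fell, against 31.5% of all 15257 genes tested that rose and 24.9% that fell (edgeR quasi-likelihood test, adjusted p below 0.05). In females 28 of 30 rose and the same 2 fell, against 26.7% and 17.2% of all genes. Over the mean of both sexes 28 rose and 2 fell, against 34.7% and 28.8%. The median log2 fold change of the 30 was 6.37 in males and 6.50 in females, beside medians over all genes of 0.02 in each sex. With the 7 tested genes at 0 in saline males and the 1 at 0 in saline females set to their lower bounds, the medians were 6.29 and 6.50. Genes at 0 in saline libraries could pass the filter on low counts only through the bleomycin libraries, so these counts describe the list and do not support it. Jchain did not pass the filter. In bulk RNA, fewer cells of a type and less RNA per cell cannot be told apart.

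The levels of single libraries describe the same list and are no further support for it. Of the 31 genes, 10 had 3 or fewer reads over all saline libraries. Genes with so few could pass the filter only through the bleomycin libraries, which nearly fixes their separation beforehand. The 31 include Jchain, which did not pass the filter, while the shares of all genes cover only those that passed. All 4 bleomycin male libraries lay above all 4 saline male libraries for 28 of the 31 genes (29.8% of all genes tested) and below them for Btk and Prdm1 (24.6% of all genes), with Cd22 overlapping. In females 29 genes lay above (23.8% of all genes), Btk lay below (15.3% of all genes) and Prdm1 overlapped. With 8 against 8 libraries, 28 genes lay above (19.2% of all genes), Btk lay below (10.3% of all genes), and Cd22 and Prdm1 overlapped.

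**Figure D1:**
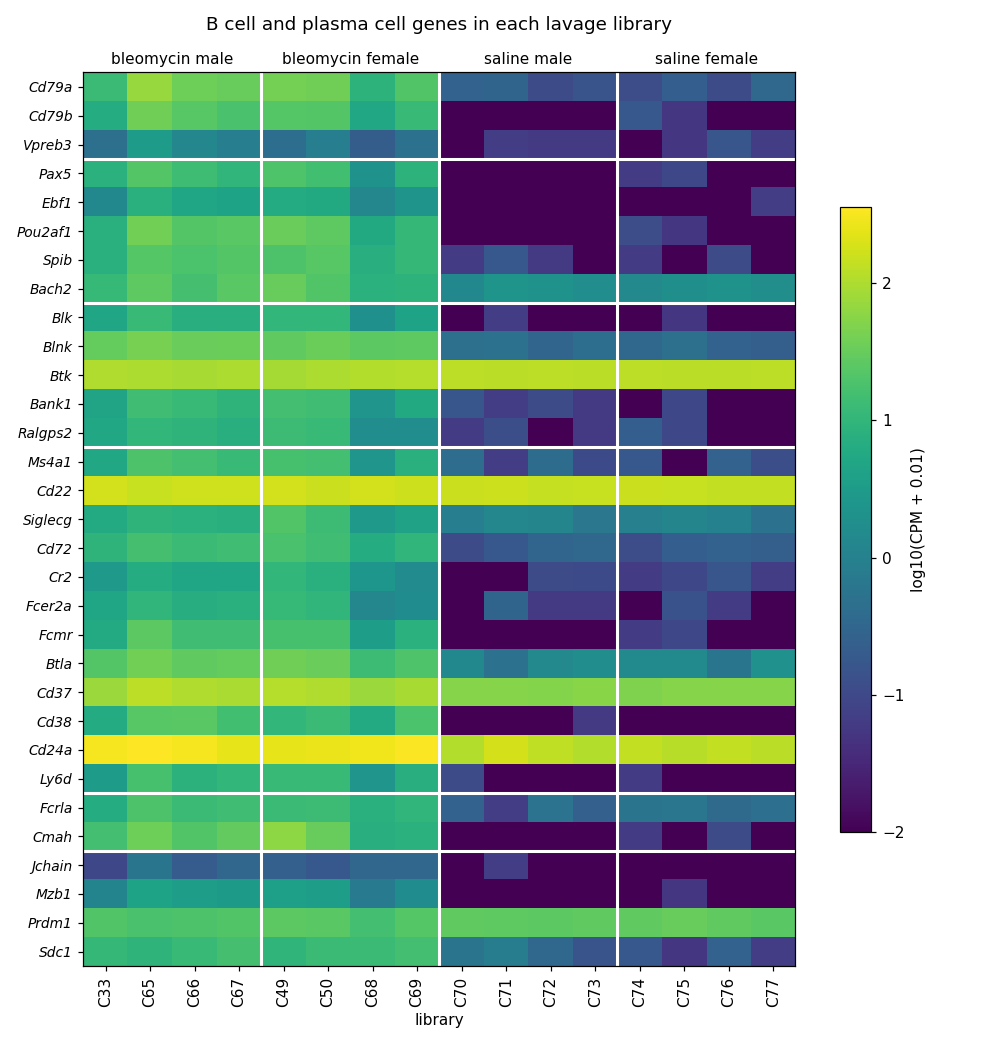
Colour gives log10(CPM + 0.01) of each of the 31 genes (down the page, grouped by role) in each of the 16 libraries (across, bleomycin left and saline right). Most genes are dark in all 8 saline libraries, while Btk, Cd22, Cd37, Cd24a and Prdm1 are at 15.9 CPM or more in all 16, and C68 is the lowest bleomycin library for 22 of the 31 genes.

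Promoters are shown for 5 genes that differ in how they moved or in level: Cd79a, Vpreb3 and Blnk rose, Cd22 hardly moved, and Jchain was higher in bleomycin libraries but near 0 throughout. RefSeq starts on GRCm38.p6 were matched for 25 of the 31 genes; Ms4a1, Blk, Ly6d, Mzb1, Cd79b and Cd24a are named only. Each window runs from 250 bases before to 50 bases after the start, 5′ to 3′ on the strand of the gene, and the Cd79a, Vpreb3, Blnk and Cd22 starts lie inside the gene spans of the deposited table. Capitals mark the 1 match of each window to the motif it is shown for, on either strand. The windows are Cd79a chr7:24897247-24897546 (plus strand, an E2A motif CAGGTG), Vpreb3 chr10:75948050-75948349 (plus strand) and Blnk chr19:40994172-40994471 (minus strand), both with an octamer, Cd22 chr7:30878979-30879278 (minus strand, an EBF motif) and Jchain chr5:88527848-88528147 (minus strand, an E2A motif).
Cd79a: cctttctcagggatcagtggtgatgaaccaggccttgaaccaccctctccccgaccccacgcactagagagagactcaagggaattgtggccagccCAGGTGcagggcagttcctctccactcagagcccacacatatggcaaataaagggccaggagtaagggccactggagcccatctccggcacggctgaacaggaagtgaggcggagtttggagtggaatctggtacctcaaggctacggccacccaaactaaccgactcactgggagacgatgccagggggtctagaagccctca
Vpreb3: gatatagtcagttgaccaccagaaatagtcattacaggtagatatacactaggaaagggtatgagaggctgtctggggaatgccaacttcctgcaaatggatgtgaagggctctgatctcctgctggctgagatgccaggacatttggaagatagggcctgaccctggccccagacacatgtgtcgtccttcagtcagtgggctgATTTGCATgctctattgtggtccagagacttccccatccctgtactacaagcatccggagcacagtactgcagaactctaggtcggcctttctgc
Blnk: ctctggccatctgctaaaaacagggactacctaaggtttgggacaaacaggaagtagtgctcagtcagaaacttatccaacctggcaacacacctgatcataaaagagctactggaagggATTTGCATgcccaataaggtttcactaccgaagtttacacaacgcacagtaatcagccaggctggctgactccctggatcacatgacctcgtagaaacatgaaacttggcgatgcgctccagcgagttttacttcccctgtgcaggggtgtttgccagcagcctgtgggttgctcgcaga
Cd22: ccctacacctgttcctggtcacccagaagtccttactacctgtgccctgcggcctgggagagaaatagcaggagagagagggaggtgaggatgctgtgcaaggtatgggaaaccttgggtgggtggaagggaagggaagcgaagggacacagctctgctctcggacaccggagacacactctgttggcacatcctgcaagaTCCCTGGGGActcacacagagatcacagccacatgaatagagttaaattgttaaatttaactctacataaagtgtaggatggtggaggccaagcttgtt
Jchain: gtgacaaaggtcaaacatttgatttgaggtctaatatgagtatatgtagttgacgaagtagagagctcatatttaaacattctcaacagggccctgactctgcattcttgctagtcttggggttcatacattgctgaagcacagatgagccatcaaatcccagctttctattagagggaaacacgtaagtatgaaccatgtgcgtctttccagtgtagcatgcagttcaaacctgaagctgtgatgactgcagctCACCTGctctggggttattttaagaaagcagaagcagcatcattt

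The octamer ATGCAAAT, which the factors that Pou2af1 assists bind, was found on either strand in 2 of the 31 windows of these genes (Vpreb3 and Blnk) and in 1.74% of all 32851 RefSeq windows of this length. The EBF motif, TCCC and GGGA with 2 bases of any kind between them, was found in 1 window (Cd22) and in 0.904% of all windows. The short E2A motif CAGGTG was found in 13 windows of 12 genes, and in 20.2% of all windows. The 3 motifs do not contain one another. In the Vpreb3 window the octamer starts 45 bases before the gene's start, and in the Blnk window 130 bases before it. These are matches of letters only.

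The receptor chains were the clearest example. Cd79a (chr7:24897381-24902197, GRCm38) encodes the alpha signalling chain of the B cell receptor. It was at 13.0, 71.6, 35.4 and 31.3 CPM in bleomycin males, 40.0, 36.4, 8.87 and 20.5 CPM in bleomycin females, 0.258, 0.286, 0.0980 and 0.145 CPM in saline males, and 0.111, 0.217, 0.105 and 0.3405 CPM in saline females. Every bleomycin library stood above every saline library, yet C65 and C68 in the bleomycin groups differed 8.07-fold. The log2 fold change was 7.57 ± 0.68 in males (SE, adjusted p = 4.11e-08) and 7.06 ± 0.69 in females (adjusted p = 1.22e-07).

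Cd79b (chr11:106311341-106314762), the partner chain, was at 6.54, 36.8, 23.9 and 17.7 CPM in bleomycin males and 22.3, 22.1, 5.48 and 11.8 CPM in bleomycin females, against 0 reads in all 4 saline male libraries and 4 reads over the saline female libraries. It followed Cd79a library by library, with C65 highest and C68 lowest. Bleomycin over saline, the level was at least 531-fold higher in males and 312-fold higher in females (95% interval 122 to 1.15e+03). Vpreb3, a chain related to the surrogate light chain of precursor B cells, was low throughout, at 0.209 to 3.35 CPM in bleomycin libraries and 0 to 0.158 CPM in saline libraries, and its highest bleomycin library, C65, was 16.1-fold above its lowest.

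The transcription factors of the lineage rose together. Pax5 (chr4:44524757-44710487), which holds cells in the B lineage, was at 7.98, 21.9, 14.0 and 9.97 CPM in bleomycin males and 20.5, 15.1, 2.14 and 8.71 CPM in bleomycin females, against 0 reads in saline males and 3 reads over the saline females. Males had at least 340-fold higher levels with bleomycin than with saline, and females 312-fold (95% interval 106 to 1.52e+03). C68 lay well below the other bleomycin libraries, and no library of one treatment reached the levels of the other.

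Pou2af1 (chr9:51213708-51240080), a coactivator that works with octamer-binding factors on antibody genes, was at 7.85, 38.5, 21.8 and 25.0 CPM in bleomycin males and 32.3, 27.1, 5.89 and 10.8 CPM in bleomycin females. Saline males had 0 reads and saline females 3, which makes the difference at least 588-fold in males and 519-fold (177 to 2.52e+03) in females. The remaining factors moved the same way. Ebf1, an early factor of B cell commitment, was at 1.30 to 7.81 CPM in bleomycin libraries, with 1 read in all saline libraries.

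Spib, an ETS factor of B cells and plasmacytoid dendritic cells, rose by a log2 fold change of 8.18 ± 0.46 over the mean of both sexes (adjusted p = 2.4e-11). Bach2, a repressor that holds back Prdm1, was already read in saline lavage, at 8.19 to 31.5 CPM in bleomycin libraries and 1.34 to 2.29 CPM in saline libraries, and rose by 3.34 ± 0.29 (adjusted p = 1e-08). The reads of Bach2 and of its antisense gene Bach2os, which had 413 reads in bleomycin libraries and 138 in saline libraries, cannot be separated without a stated strand, and the strand setting of the counting is not given in the sources used here.

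Of the signalling genes, 4 of 5 rose and 1 fell over the mean of both sexes, against 34.7% and 28.8% of all genes tested. Blk (chr14:63372836-63417037), a Src family kinase, was at 5.02, 11.7, 7.29 and 7.51 CPM in bleomycin males and 10.2, 10.3, 1.93 and 4.36 CPM in bleomycin females, against 1 read in saline males and 1 in saline females. Over both sexes it was 577-fold higher (95% interval 159 to 4.77e+03). C68 was again the lowest bleomycin library.

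Blnk, the adaptor that links the receptor to its downstream enzymes, was the steadiest of the genes that were scarce in saline lavage. It was at 25.2 to 41.3 CPM in bleomycin libraries, a range of 1.64-fold, and 0.227 to 0.515 CPM in saline libraries, and rose by a log2 fold change of 6.35 ± 0.14 (adjusted p = 1.72e-16). Bank1, a scaffold of the same pathway, rose by 7.48 ± 0.55 (adjusted p = 1.24e-09), or by 8.64 when saline female library C75, which holds its 2 saline female reads, was left out. Ralgps2, an exchange factor for Ral GTPases, rose by 6.80 ± 0.63 (adjusted p = 2.46e-08).

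Btk went the other way. This kinase acts downstream of the B cell receptor and is also made by myeloid cells. It was at 105, 99.2, 91.3 and 99.8 CPM in bleomycin males, 87.2, 98.3, 108 and 112 CPM in bleomycin females, 125, 121, 126 and 120 CPM in saline males, and 127, 124, 123 and 125 CPM in saline females. The 8 bleomycin libraries all lay below the 8 saline libraries, by a log2 fold change of -0.31 ± 0.05 over the mean of both sexes (adjusted p = 4.53e-05). C49, second to C65 for Cd79a, had the lowest Btk level of all.

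Among the surface molecules Ms4a1 (CD20; chr19:11249675-11266241) was at 5.41, 19.2, 15.9 and 11.7 CPM in bleomycin males and 17.3, 15.6, 2.40 and 7.67 CPM in bleomycin females. In saline males it was at 0.413, 0.0572, 0.392 and 0.0968 CPM, and in saline females at 0.166, 0, 0.263 and 0.114 CPM. Bleomycin and saline libraries did not overlap, and the log2 fold change was 5.71 ± 0.68 in males (adjusted p = 1.3e-06) and 6.31 ± 0.75 in females (adjusted p = 1.39e-06).

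Fcmr (chr1:130865669-130880791), the receptor for the Fc part of IgM, was at 6.06, 25.3, 14.2 and 14.5 CPM in bleomycin males and 16.8, 16.7, 3.65 and 8.16 CPM in bleomycin females. There were 0 reads in saline males and 3 in saline females. Against saline of the same sex, bleomycin males were at least 379-fold and bleomycin females 307-fold higher (95% interval 105 to 1.49e+03).

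Cr2 and Fcer2a are receptors of mature, resting B cells. Cr2 (CD21, a complement receptor; chr1:195136811-195176716) was at 2.97, 6.76, 4.96 and 5.01 CPM in bleomycin males and 10.6, 7.78, 2.45 and 1.59 CPM in bleomycin females, and had 0 to 3 reads in each saline library. Fcer2a (CD23, the low-affinity IgE receptor) was at 4.88, 10.1, 6.89 and 7.96 CPM in bleomycin males and 11.4, 9.83, 1.25 and 1.66 CPM in bleomycin females, and had 0 to 5 reads in each saline library. For both genes C68 and C69 lay below all 4 bleomycin males and C49 above them, and C50 lay above them for Cr2 but among them for Fcer2a.

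Cr2 rose by a log2 fold change of 6.15 ± 0.51 (adjusted p = 6.1e-09) and Fcer2a by 6.50 ± 0.62 (adjusted p = 4.35e-08) over the mean of both sexes. The Fcer2a value turned on a few saline reads, and was 7.15 without saline male library C71 and 7.11 without saline female library C75.

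Cd22 (chr7:30865402-30880342), an inhibitory sialic acid-binding receptor of B cells, did not behave like the other surface genes. It was at 174, 148, 166 and 168 CPM in bleomycin males, 174, 158, 174 and 162 CPM in bleomycin females, 154, 165, 144 and 152 CPM in saline males, and 156, 148, 138 and 136 CPM in saline females. The treatments overlapped in males and not in females. The log2 fold change was 0.09 ± 0.07 in males (adjusted p = 0.277) and 0.21 ± 0.07 in females (adjusted p = 0.0272). Scaled by library totals alone, Cd22 lay lower in bleomycin males by -0.13 and was not called in either sex. That scaling moved the median over all genes to -0.21 in males and -0.17 in females.

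The remaining surface and other B cell genes are given by range. Cd38, an NAD-consuming surface enzyme, was at 6.16 to 24.7 CPM in bleomycin libraries with 1 read in all saline libraries. Cmah, which hydroxylates sialic acid, was at 7.09 to 59.6 CPM in bleomycin libraries with 3 reads in all saline libraries. Cmah, like Cr2 and Fcer2a, was highest in C49.

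Ly6d, a surface marker of early B lineage cells, was at 2.40 to 16.9 CPM in bleomycin libraries with 3 reads in all saline libraries. The inhibitory receptors Cd72, Btla and Siglecg rose by log2 fold changes of 5.84 ± 0.26, 4.40 ± 0.26 and 3.22 ± 0.35. Cd72 overlaps Tesk1 on the opposite strand, which had 3546 reads in bleomycin libraries and 3140 in saline libraries. Fcrla, an intracellular relative of Fc receptors, rose by 4.98 ± 0.27 and overlaps Gm2962, a pseudogene with 248 reads in bleomycin libraries and 132 in saline libraries, so part of its reads is uncertain.

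Cd37, a tetraspanin, and Cd24a, a glycolipid-anchored glycoprotein, are found on many leukocytes. Cd37 was at 73.9 to 129 CPM in bleomycin libraries and 47.4 to 56.8 CPM in saline libraries, and rose by a log2 fold change of 0.88 ± 0.10 (adjusted p = 2.49e-07). Cd24a was at 243 to 361 CPM in bleomycin libraries and 109 to 185 CPM in saline libraries, and rose by 1.18 ± 0.11 (adjusted p = 3.14e-08). Cd37 overlaps Tead2, which had 162 reads in bleomycin libraries and 150 in saline libraries.

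Cd22, Btk, Cd24a, Cd37 and Prdm1 thus stand apart by their level in saline lavage, where they lay between 24.6 and 185 CPM; they were grouped after their values were seen. The other 26 genes reached at most 2.29 CPM in any saline library, and 10 of them had 3 or fewer reads over all 8. The 5 genes gave 57.3% to 82.5% of the reads of the whole set in bleomycin libraries and 98.6% to 98.8% in saline libraries.

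The 4 plasma cell genes did not move as 1 group. Mzb1 and Sdc1 rose and Prdm1 fell. Jchain was higher in bleomycin libraries too, but stayed near the limit of detection.

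**Figure D2:**
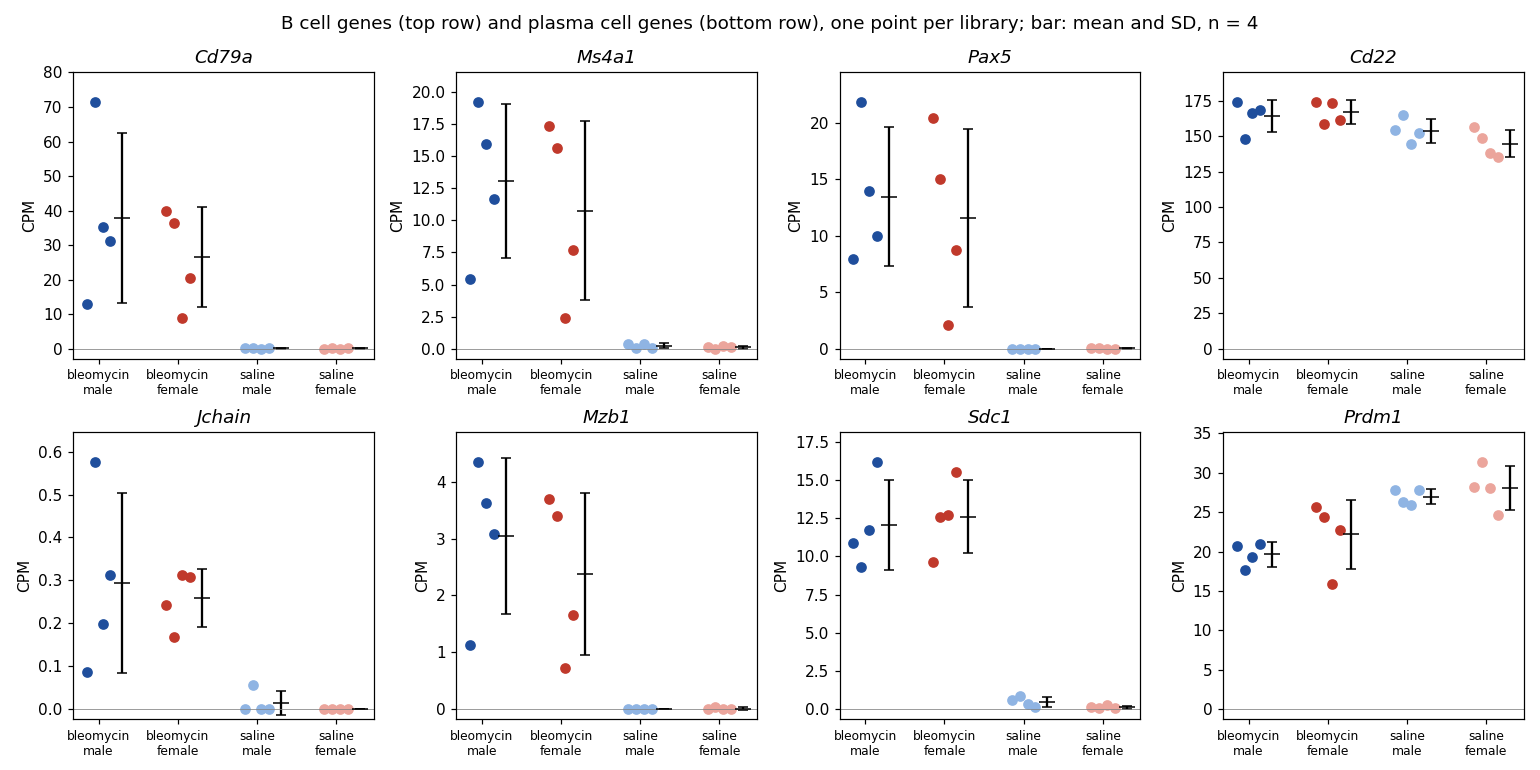
Points are single libraries in CPM on a linear axis from 0, with the mean and SD of each group of 4 beside them, for 4 B cell genes (top) and the 4 plasma cell genes (bottom). Cd79a, Ms4a1, Pax5 and Mzb1 share 1 shape over the groups, Cd22 is level, Jchain stays below 0.6 CPM, Sdc1 is high and narrow in bleomycin, and Prdm1 is lower in bleomycin.

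Jchain (chr5:88519809-88527891) encodes the chain that joins IgA and IgM into polymers, and plasma cells make it in large amounts. It had 2, 11, 4 and 7 reads in bleomycin males, 5, 4, 6 and 5 reads in bleomycin females, 1 read in saline male library C71 and 0 reads in the other saline libraries. All 8 bleomycin libraries lay above all saline libraries, but the sum over them was 44 reads. The level was 22.1-fold higher in bleomycin males (95% interval 3.61 to 910); in females it was at least 6.49-fold higher. Without a filter on low counts Jchain was called as risen in each sex.

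Mzb1, on chromosome 18, is an endoplasmic reticulum chaperone that helps assemble antibodies in B cells of the marginal zone and in plasma cells. It was at 1.13, 4.35, 3.62 and 3.09 CPM in bleomycin males and 3.70, 3.40, 0.730 and 1.66 CPM in bleomycin females, against 0 reads in saline males and 1 read in saline females. Against saline of the same sex, it was at least 77.1-fold higher in males treated with bleomycin and 193-fold higher in females (95% interval 34.2 to 7.65e+03). Its highest and lowest bleomycin libraries were those of Cd79a.

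Sdc1 (chr12:8771323-8793715) encodes syndecan-1 (CD138), a heparan sulphate proteoglycan of plasma cells that epithelial cells also make. It was at 10.9, 9.33, 11.8 and 16.2 CPM in bleomycin males, 9.65, 12.6, 12.7 and 15.5 CPM in bleomycin females, 0.568, 0.858, 0.343 and 0.145 CPM in saline males, and 0.166, 0.0435, 0.263 and 0.0567 CPM in saline females. The treatments did not overlap, and C65, highest for Cd79a, was lowest for Sdc1 among the bleomycin libraries. The log2 fold change was 4.67 ± 0.34 in males (adjusted p = 2.46e-09) and 6.54 ± 0.41 in females (adjusted p = 4.09e-10).

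Prdm1 (chr10:44437177-44528501) encodes Blimp-1, the repressor that drives plasma cell formation and that other blood cells make too. It was at 20.7, 17.6, 19.2 and 21.0 CPM in bleomycin males, 25.6, 24.4, 15.9 and 22.8 CPM in bleomycin females, 27.8, 26.3, 25.96 and 27.8 CPM in saline males, and 28.2, 31.4, 28.0 and 24.6 CPM in saline females. All bleomycin males lay below all saline males, whereas bleomycin female library C49 lay above saline female library C77. The log2 fold change was -0.46 ± 0.12 in males (adjusted p = 0.00401) and -0.34 ± 0.12 in females (adjusted p = 0.0295). The female call was lost, with the same sign, with the 2 groups alone and without any 1 of C68, C74, C75 or C76.

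Set against length, Cd79a and Cd79b lay above the plasma cell genes. The other B cell genes lay on both sides of Prdm1, Sdc1 and Mzb1. In the FPKM values of the authors (reads scaled by gene length and library), Cd79a averaged 21.8 ± 13.3 and Cd79b 12.7 ± 7.14 over the 8 bleomycin libraries (SD). Prdm1 averaged 3.70 ± 0.60, Sdc1 3.19 ± 0.65 and Mzb1 2.96 ± 1.47 FPKM, 3 genes whose spreads overlap, and Jchain averaged 0.108 ± 0.057 FPKM. Among the other B cell genes, Ly6d averaged 12.0 ± 6.38, Pou2af1 8.21 ± 4.63 and Blnk 5.16 ± 0.88 FPKM, above Prdm1. Ms4a1 averaged 1.90 ± 0.98, Pax5 1.40 ± 0.74 and Vpreb3 1.155 ± 1.156 FPKM, below Mzb1. Jchain was the lowest of the 31 genes in bleomycin libraries by FPKM, below Ebf1 at 0.430 ± 0.245, and the highest were Cd24a at 113 ± 16.2 and Cd22 at 32.4 ± 1.86, followed within its spread by Btk at 31.4 ± 2.42.

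**Figure D3:**
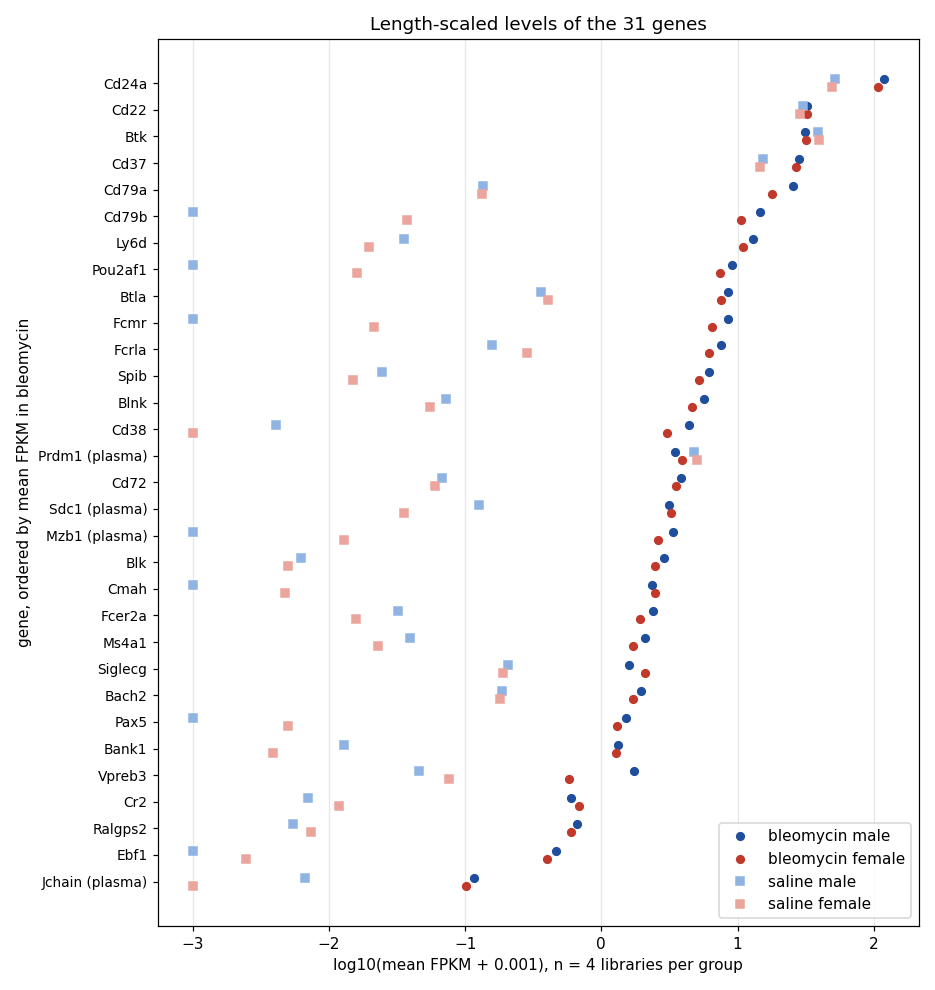
Each of the 31 genes, ordered by its mean FPKM in bleomycin libraries, with the mean of each group of 4 libraries on a log10(FPKM + 0.001) axis; circles are bleomycin and squares saline. Points at -3 are groups with 0 reads, and Jchain is at the foot of the order while Prdm1, Sdc1 and Mzb1 lie in its middle.

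Antibody genes, which are no members of the set, were read as well. Over the 8 bleomycin libraries there were 15911 reads of Ighm, 5629 of Ighd, 6683 of Igkc and 434 of Igha, beside 44 of Jchain, 449 of Mzb1 and 13 of Tnfrsf17, the plasma cell survival receptor BCMA. Saline libraries held 81, 9, 9 and 82 reads of Ighm, Ighd, Igkc and Igha, all 9 of Igkc in C74, and 0 of Tnfrsf17. These are raw reads and not levels per length. Ighd marks B cells that have not switched to another antibody class. Reads of antibody constant regions can be split between similar genes.

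The 4 plasma cell genes made up 3.37% ± 0.69 of the summed CPM of the set in bleomycin males and 3.81% ± 0.32 in bleomycin females, and 5.55% ± 0.51 in saline males and 5.84% ± 0.54 in saline females (SD, n = 4 each). The plasma cell sum was 35.0 ± 3.89 and 37.4 ± 5.21 CPM in bleomycin males and females, and 27.5 ± 0.90 and 28.2 ± 2.78 CPM in saline males and females, nearly all of it Prdm1 in saline. The share is a description and was not tested. By summed FPKM the shares of bleomycin and saline libraries overlapped in each sex, as given at the end. With Cd37, Cd38, Cd24a, Btk, Cd72 and Blnk left out of the B cell sum it was 7.44% in bleomycin males, 8.81% in bleomycin females, 14.7% in saline males and 15.8% in saline females. That smaller B cell sum was 159 CPM in saline males and 150 CPM in saline females. Nearly all of it was Cd22, at 154 and 145 CPM, so in saline this share mostly sets Prdm1 against Cd22.

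Within the bleomycin groups the B cell genes rose and fell together from library to library. Of the 31 genes, 17 were highest in C65 and 9 in C49, and 22 were lowest in C68. Over the 8 bleomycin libraries, 24 of the other 30 genes had a Pearson correlation with Cd79a past an adjusted p of 0.05 (exact permutation over pairings of log2(CPM + 0.5), 30 correlations), all with r above 0, and 21 by Spearman's rho. The points share library and depth, the 2 sexes are pooled, and 4 libraries of 1 sex are too few for a correlation within it. Leaving out C68 lowered the number to 15. Leaving out C68 and C33, the libraries farthest from the median of Cd79a, 15 of the 24 kept r above 0.8.

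Ms4a1 had r = 0.961 (adjusted exact p = 0.000372) and rho = 0.976 (adjusted exact p = 0.00149), with r = 0.885 without C68 and C33. Fcmr had r = 0.991 and Cd79b r = 0.990, the closest to Cd79a of the 30. Mzb1 kept with the B cell genes, with r = 0.971 (adjusted exact p = 0.000372), rho = 0.976 (adjusted exact p = 0.00149) and r = 0.888 without the 2 libraries. Cd38 and Siglecg rested on them: Cd38 had r = 0.769 with and 0.198 without them, and Siglecg 0.738 and 0.501.

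For the other plasma cell genes no correlation with Cd79a passed the test, and 8 libraries are too few to exclude one. Sdc1 had r = -0.364 (adjusted exact p = 0.400) and rho = -0.595 (adjusted exact p = 0.165), with r = -0.819 without C68 and C33 and r = -0.0766 without C65. Prdm1 had r = 0.290 (adjusted exact p = 0.504) and rho = 0.333 (adjusted exact p = 0.458), and its r was -0.499 without the 2 libraries. Jchain, at 2 to 11 reads a library, had r = 0.452 (adjusted exact p = 0.286) and rho = 0.190 (adjusted exact p = 0.688). Btk, Cd22 and Cd24a had r of -0.633, -0.683 and 0.041 and were not called either.

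**Figure D4:**
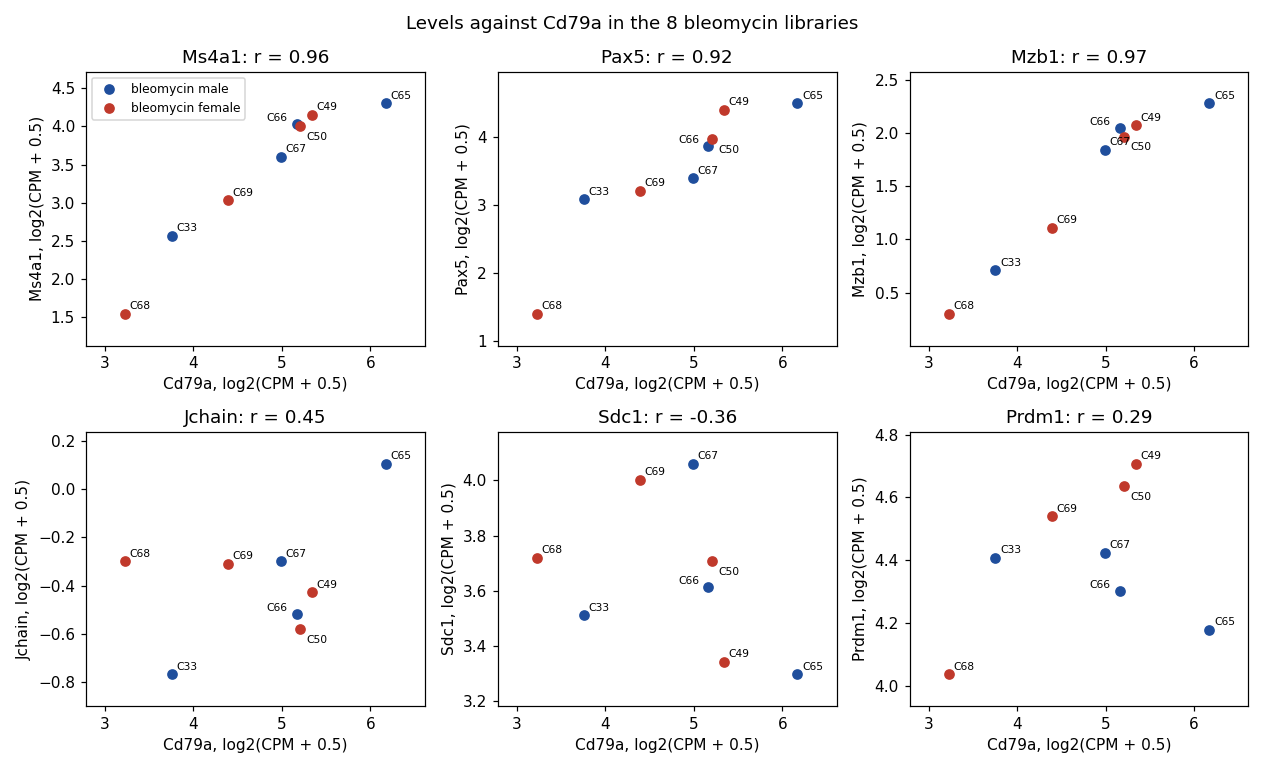
Each panel plots log2(CPM + 0.5) of 1 gene against that of Cd79a in the 8 bleomycin libraries, with library codes beside the points. Ms4a1, Pax5 and Mzb1 follow Cd79a from C68 at the low end to C65 at the high end. For Jchain, Sdc1 and Prdm1 no correlation with Cd79a passed the test.

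Genes of other cells moved across the same libraries. Over the mean of both sexes 10 of 10 T cell genes, 6 of 7 genes of plasmacytoid dendritic cells, 6 of 7 neutrophil genes and 5 of 5 red blood cell genes rose, and 1 neutrophil gene fell, against 34.7% of all genes tested that rose and 28.8% that fell. The red blood cell genes rose in males (5 of 5, median log2 fold change 5.11), while in females 0 of 5 were called by edgeR and 0 had an unadjusted p below 0.05 (median 1.68). The test of the difference between the sexes called 0 of these 5, with 4 at an unadjusted p below 0.05. The summed T cell markers were at 190 to 634 CPM in bleomycin libraries, with C68 lowest and C65 highest as for Cd79a, and at 1.42 to 4.69 CPM in saline libraries. The 5 summed red blood cell genes were at 67.3 to 6018 CPM in bleomycin libraries, with C33 lowest and C65 highest, and at 7.23 to 440 CPM in saline libraries, so the treatments overlapped. Their part in the B cell values was not tested. C33, with 67.3 CPM of red blood cell genes, had 13.0 CPM of Cd79a, while saline female library C74, with 440 CPM of red blood cell genes, had 0.111 CPM of Cd79a. On the other side, C65 was the highest library for both, with 6018 CPM of red blood cell genes and 71.6 CPM of Cd79a. The beta globin gene Hbb-bs had r = 0.906 with Cd79a over the 8 bleomycin libraries. With C65 left out, all 29 male calls of the set remained.

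Of 9 comparison genes chosen after the data were seen, Ighm (r = 0.979), Cd3e (r = 0.922), a chain of the T cell receptor complex, and Hbb-bs (r = 0.906), a beta globin, were positively and Siglecf (r = -0.908) negatively correlated with Cd79a over the 8 bleomycin libraries. Their adjusted exact p over the 9 were 0.000893, 0.00281, 0.00421 and 0.00313, their rho 0.905, 0.905, 0.857 and -0.810 with adjusted exact p of 0.0103, 0.0103, 0.0193 and 0.0280, and their r without C68 and C33 0.927, 0.882, 0.867 and -0.824. S100a8, a neutrophil gene, had r = 0.321 (adjusted exact p = 0.425).

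No difference between males and females passed the test in any of the 30 genes. Between bleomycin males and bleomycin females 0 of 30 genes were called by edgeR, DESeq2 or limma, against 0.059% of all genes by edgeR, and 2 had an unadjusted p below 0.05: Vpreb3 (log2 difference 1.53, 95% interval 0.40 to 2.65, adjusted p = 0.995) and Blnk (0.28, 0.04 to 0.53, adjusted p = 0.995). For Cd79a the difference was 0.51 (-0.28 to 1.30), for Ms4a1 0.27 (-0.62 to 1.17), for Mzb1 0.34 (-0.58 to 1.27) and for Sdc1 -0.06 (-0.55 to 0.43). The intervals of the first 3 reach more than a log2 unit above 0, so differences of that size between the sexes cannot be told from none in 4 libraries each. C65 holds much of the Vpreb3 difference, with 3.35 CPM against 0.480 to 1.29 CPM in the other bleomycin males and 0.209 to 0.883 CPM in bleomycin females.

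Between saline males and saline females 0 of 30 genes were called (0.269% of all genes by edgeR), and 1, Sdc1, had an unadjusted p below 0.05. Sdc1 had 36 reads over the saline male libraries and 10 over the saline female libraries, a log2 difference of 1.80 (0.67 to 2.93, edgeR adjusted p = 0.295). The test of whether the response to bleomycin differed by sex called 0 of 30 genes (0.00655% of all genes), with 1, again Sdc1, at an unadjusted p below 0.05 (male minus female change -1.87, -3.10 to -0.63, edgeR adjusted p = 0.564). DESeq2 and limma also called 0 genes of the set in both comparisons.

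In the authors' deposited table for males, 30 of the 31 genes are listed, with 28 risen and 2 fallen at their adjusted p, and Cd22 is the one not listed. In the authors' deposited table for females all 31 are listed, 28 risen and 1 (Btk) fallen. Cd22 (authors' adjusted p = 0.0614) and Prdm1 (0.0785) do not pass there, although edgeR called both in females. These 2 tables list only genes up to a p of 0.04998, 11069 in males and 8147 in females. By edgeR, 31.5% of all genes tested rose and 24.9% fell in males, and 26.7% and 17.2% in females. The authors' deposited tables list Jchain at a log2 fold change of 4.22 in males (adjusted p = 0.00689) and 4.74 in females (adjusted p = 0.00487). In the authors' deposited tables of males against females 0 genes of the set pass the adjusted p, and Vpreb3 (bleomycin) and Sdc1 (saline) are the ones listed.

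Other genes of B cells and their surroundings were read from lists of known markers and pathway members, over the mean of both sexes, where 34.7% of all genes tested rose and 28.8% fell. All 16 further B cell genes rose, or 15 of them with scaling by library totals alone, under which the small change of Cd83, an activation marker, turned its sign. Ighm, the heavy chain of IgM, was at 96.2 ± 46.3 CPM in bleomycin libraries and 0.520 ± 0.235 CPM in saline libraries. Ccr7, a chemokine receptor that guides lymphocytes to lymph nodes, was at 141 ± 45.9 CPM in bleomycin libraries and 8.06 ± 2.97 CPM in saline libraries (SD, n = 8 each). T cells and dendritic cells make Ccr7 too.

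The list of signalling molecules downstream of the B cell receptor, most of which myeloid cells share, was divided: 6 of 15 rose, 6 fell and 3 were not called, which is near the shares of all genes. With library totals alone 3 rose and 6 fell, and Bcl10, Cd81, Lyn, Nfatc1 and Vav1 changed sign. Prkcb, a protein kinase C, was at 57.0 ± 10.0 CPM in bleomycin libraries and 0.811 ± 0.278 CPM in saline libraries. Pik3ap1, an adaptor for phosphoinositide 3-kinase, was at 294 ± 54.3 CPM in bleomycin libraries and 807 ± 78.9 CPM in saline libraries (SD, n = 8 each), and fell by a log2 fold change of -1.46 ± 0.10 (adjusted p = 2.2e-10).

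The list of further plasma cell genes was also divided, with 10 of the 16 tested risen, 4 fallen and 2 not called, or 9 risen and 6 fallen with library totals alone. The share that fell is near that of all genes. Of those with the smallest adjusted p, Slamf7 and Cd28, which T cells and other lymphocytes also carry, were at 114 ± 17.1 CPM and 14.7 ± 6.19 CPM in bleomycin libraries, against 2.53 ± 0.97 CPM and 0.109 ± 0.086 CPM in saline libraries. Xbp1, the factor of the secretory programme, was 1 of the 4 that fell and was named after its values were seen. It was at 273 ± 55.2 CPM in bleomycin libraries and 490 ± 20.6 CPM in saline libraries (edgeR adjusted p = 5.56e-07). Several genes of this list, Xbp1 among them, are made by macrophages.

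Of 8 germinal centre genes 5 were tested, of which 4 rose and 1 fell. Gcsam, a germinal centre signalling molecule, was at 5.19 ± 0.67 CPM in bleomycin libraries and 0.114 ± 0.090 CPM in saline libraries (SD, n = 8 each). Of 10 genes that attract or sustain B cells 3 were tested. Tnfsf13b, which encodes the survival factor BAFF, fell, at 4.99 ± 1.497 CPM in bleomycin libraries and 16.1 ± 2.30 CPM in saline libraries (log2 fold change -1.69 ± 0.15, adjusted p = 1.71e-08). Il4 rose by 1.85 ± 0.24 (adjusted p = 3.03e-06) and Tnfsf13 was not called. Tnfrsf13c, the BAFF receptor, was at 3.66 ± 1.86 CPM in bleomycin libraries and had 2 reads in all saline libraries.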

How the data were processed

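RNA of mouse lavage cells was sequenced in 16 libraries. Tools named in the submitters' processing notes are DESeq2, featureCounts 1.5.0-p3, HISAT2 2.0.5 and fastp 0.12.2, in no stated order; the notes give 2 builds, mm9 and mm10, and no role for either. The authors deposited raw counts per gene; the coordinates of 30 of the 31 genes equal those of GENCODE M21 on GRCm38. The deposited FPKM values equal counts divided by gene length and by 1 constant per library. The log2 fold changes and p-values in the authors' 5 deposited tables come from their own comparisons, which list genes up to a p of 0.04998. No 2 libraries agreed within sampling noise (chi-square per gene 4.50 to 70.5).

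The genes and lists were chosen with earlier results of these data known. Library codes were read from the column names, with 0 columns left over. Counts of all 54532 genes were filtered with filterByExpr (minimum count 10) and fitted in edgeR 4.0.16 (R 4.3.3; TMM, quasi-likelihood, 1 coefficient per group, all 16 libraries, Benjamini-Hochberg adjustment over 15257 genes), after a test on simulated data. A standard error is the log2 fold change divided by the root of its F and is approximate. DESeq2 1.42.0 and limma 3.58.1 were alternatives, beside library totals alone, other size factors, no filter, a filter of 1 CPM in 4 libraries, the 2 groups alone and each library left out. Per-library values were given for 14 genes that the comparison of B cell with plasma cell genes turns on and for any called between the sexes (none was), and for Btk and other genes where a result turned on them. Of each further list, genes were named from the 4 with the smallest adjusted p; Xbp1, Tnfsf13, Tnfrsf13c and the antibody genes were chosen after their values were seen. Some genes of these lists are not reported here.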

Additional observations from a re-analysis of the deposited data

How the results depend on the processing

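The numbers of genes called were 28 to 30 in males, 27 to 30 in females and 29 to 30 over the mean of both sexes across all settings. Leaving out 1 library at a time gave 29 in males, 28 to 30 in females and 30 over the mean, and 0 in each comparison of the sexes. Scaling by library totals alone turned Cd22 to -0.13 in males and -0.058 over the mean; over all genes it made 22.4% rise and 40.2% fall in males, against 31.5% and 24.9% with TMM, and 20.5% and 31.7% in females, against 26.7% and 17.2%. The female call of Cd22 was also lost with no filter, with the 2 groups alone and without any 1 of C66, C68, C76 or C77. Vpreb3 was not tested under the filter of 1 CPM or, in males and females, with the 2 groups alone, and Jchain was gained with no filter. The number correlated with Cd79a was 23 with a pseudocount of 2 CPM and 15 to 23 with 1 library left out. With 1 library left out, the r of Jchain ran between -0.0132 (without C65) and 0.736 (without C68), and that of Prdm1 between -0.257 (without C68) and 0.719 (without C65); the cause was not tested.

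The plasma cell share was 2.95%, 3.17%, 3.5% and 3.65% by summed FPKM (bleomycin males, bleomycin females, saline males, saline females). By FPKM the treatments overlapped in each sex. Single libraries ran from 2.35% to 3.60% in bleomycin males and 3.02% to 3.83% in saline males. In females they ran from 2.85% to 3.33% with bleomycin and 3.29% to 4.19% with saline. By CPM, without Cd37, Cd38, Cd24a, Btk, Cd72 and Blnk in the B cell sum, the share was 7.44%, 8.81%, 14.7% and 15.8%. By CPM over the whole set, with 1 library left out, the share was 3.13% to 3.67%, 3.67% to 3.92%, 5.40% to 5.77% and 5.59% to 6.01% in the same groups. No paired analysis was possible because the groups share no library codes. Where saline groups had 0 to 3 reads, depth limits the fold change to a bound or a wide interval.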
